A study of Homo sapiens with 12 samples.

Results

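AU-15330 was compared with its DMSO vehicle after 24 h in Z138 cells, an established human mantle cell lymphoma line, with 3 libraries in each group. These 6 libraries were chosen by the group and time in their titles, out of 12 samples in the series, and the comparison covers the 12721 expressed genes out of 20318 entries in the deposited table. All groups share the same line, which the labels call wild type. The treated cells had 0.5 µM AU-15330 for 24 h and the control cells had DMSO for 24 h. The remaining samples are the same agents after 8 h, of which 3 AU-15330 libraries and 2 DMSO libraries with distinct values were used to compare the times. Nothing in the labels says that replicates came from separate cultures, so p-values speak only of the scatter among these libraries, and that scatter may be technical. The labels give the time point as the batch as well, so a difference between the times and a difference between batches cannot be told apart. Z138 is 1 line, and results from it describe that line.

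BAF complexes, also called SWI/SNF, use the ATPases SMARCA4 (BRG1) or SMARCA2 (BRM) to slide and evict nucleosomes, and thereby keep enhancers and promoters open for transcription factors. PBAF is the form of the complex that carries PBRM1. AU-15330 is a proteolysis-targeting chimera, a molecule that brings a ubiquitin ligase to SMARCA2, SMARCA4 and PBRM1 so that the proteasome destroys the proteins. RNA does not report the level of these proteins. In B cells, BAF works beside lineage factors such as PU.1, EBF1 and PAX5, and mantle cell lymphoma cells depend on B cell receptor signalling, on high cyclin D1 from a translocation and often on the factor SOX11.

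Levels are given as normalised counts per gene, of which 59.4 equal 1 CPM, a count scaled to library size. They were computed back from the deposited log2 values on a scale inferred from those values, and every level and log2 change below rests on that inference. A log2 change is the difference between AU-15330 and DMSO on log2(normalised count + 60), which understates the change of low genes, and SE is its standard error. A gene is said to have risen or fallen when its adjusted p was under 0.05 in limma, a linear model across all genes with Benjamini-Hochberg adjustment. Estimated total counts over all 11 libraries ran from 50745720 to 67596094. Correlations between the 24 h libraries on the deposited scale were 0.9965 to 0.9977 within a group and 0.9751 to 0.9775 between groups. The 100 most abundant genes held 22.0% to 22.4% of counts under AU-15330 and 21.9% to 22.1% under DMSO, and the mitochondrial genome held 1.03% to 1.22% over all 6. Of the 10 B cell markers listed, all but CD22 stood over 1 CPM in each of the 6 libraries. The highest was MS4A1 (CD20), at 181 to 187 CPM under AU-15330 and 586.4 to 610.6 CPM under DMSO. CD22 had 0 to 0.3412 CPM under AU-15330 and 4.866 to 5.813 CPM under DMSO. The summed level of 10 B cell markers was 548 to 573.1 CPM under AU-15330 and 1573 to 1598 CPM under DMSO, so the markers themselves were part of the change. In bulk samples, fewer cells of a type and less RNA per cell cannot be told apart.

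At 24 h, 6476 of 12721 genes (50.9%) passed the test, 3146 higher (24.7%) and 3330 lower (26.2%). Which direction had more calls depends on the scaling: under the 4 other scalings or scales run, rises outnumbered falls, from 3578 against 3079 with library medians centred to 3894 against 2870 on log2(CPM + 5). Most of these changes were small: 4489 of the 6476 (69.3%) were under 1.5-fold. Large changes were mostly falls, with 609 genes at least 2-fold lower (4.79%) against 209 at least 2-fold higher (1.64%), and falls of that size outnumbered rises under those 4 scalings too. At 4-fold the counts were 118 lower and 18 higher. Values of the 6 libraries did not overlap between the groups for 7504 genes (59%). The median log2 change of all genes was 0.01, with quartiles of -0.22 and 0.20. Falls of at least 2-fold made up 8.84% of genes with a mean of 3 to 10 CPM and 1.66% of genes over 300 CPM. Rises of that size also had a smaller share at the higher level, with 3.23% and 0.552% in the same classes.

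**Figure D1:**
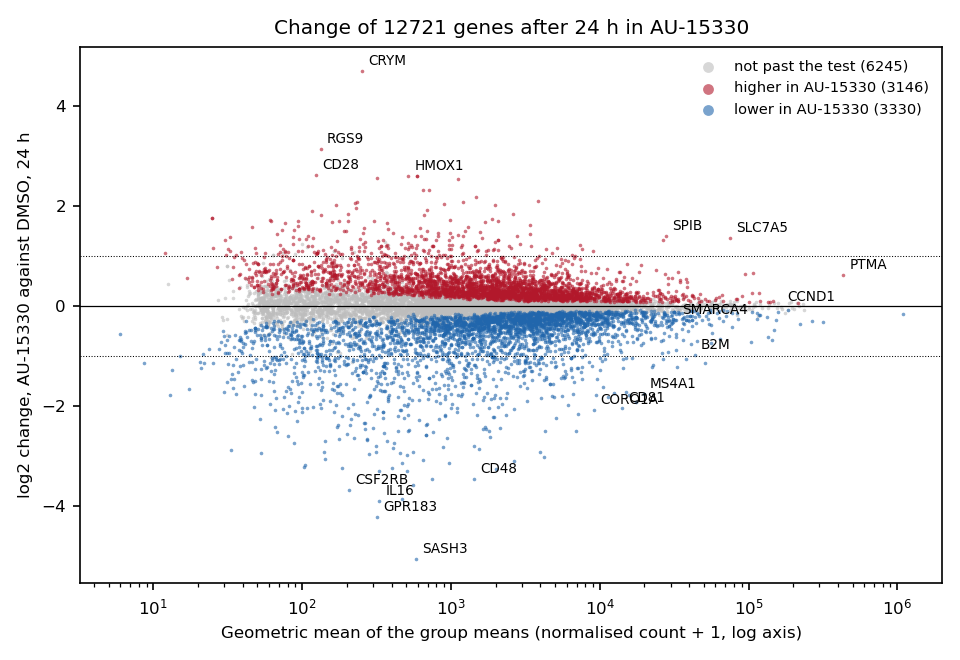
Each point is 1 of the 12721 genes tested, with the geometric mean of its group means in normalised counts (log axis) against its log2 change at 24 h. Colour gives the call, and dotted lines mark 2-fold. Large falls reached further from 0 than large rises, from SASH3 at -5.05 to CRYM at 4.70.

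The largest fall was that of SASH3, an adaptor protein of lymphocytes encoded on chrX:129779979-129795201. It had 4371, 4281 and 4731 normalised counts under DMSO and 74.99, 73.93 and 78.97 under AU-15330. Its log2 change was -5.05 (SE 0.0757, adjusted p = 7.94e-12, limma). GPR183, the oxysterol receptor that positions B cells in follicles, had 2011, 2075 and 1861 under DMSO and 54.67, 45.46 and 49.04 under AU-15330. The lowest DMSO library of GPR183 stood far above the highest AU-15330 library, and the log2 change was -4.22. IL16, which encodes a chemoattractant cytokine for CD4+ cells, had 1782, 1689 and 1734 under DMSO and 62.45, 60.29 and 60.55 under AU-15330. CD48, a ligand of the SLAM receptor family, went from a mean of 5077 ± 141 (SD, n = 3) to 405.5 ± 22.0. IL10, the anti-inflammatory cytokine, went from 2752 ± 242 to 199.5 ± 49.1 (SD, n = 3). CSF2RB is the signalling chain shared by the receptors for IL-3, IL-5 and GM-CSF, and it dropped from 1154 ± 20.7 to 35.49 ± 8.04. LCK, a SRC family kinase best known in T cells, had 1451, 1423 and 1625 under DMSO and 90.78, 111.7 and 118.2 under AU-15330. VPREB3, an early B cell protein, had log2 -3.24, and GRAP, an adaptor of the GRB2 family, had -3.30. MYO1G, a myosin of blood cell membranes, had -3.86, the transcription factor CREB5 had -3.57, and the fatty acid desaturase family member FADS3 had -3.30. SH3TC1 (-3.25), APOL3 (-3.21) and SYNPO2L (-3.17) complete the list. All 15 had non-overlapping groups, which the naming rule required.

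The largest rise was that of CRYM, a thyroid hormone binding protein, encoded on chr16:21238874-21303083. It had 29.22, 23.58 and 30.77 normalised counts under DMSO and 2255, 2445 and 1992 under AU-15330, a log2 change of 4.70 (SE 0.102, adjusted p = 5.31e-10, limma). RGS9, a GTPase activator that shuts off G protein signalling, is normally known from photoreceptors and striatum. It had 25.40, 24.59 and 24.27 under DMSO and 696.6, 742.3 and 632.5 under AU-15330. CD28, the co-stimulatory receptor of T cells, had 45.75, 28.08 and 17.38 under DMSO and 491.7, 471.2 and 510.5 under AU-15330. The DMSO libraries of CD28 varied around a mean of 30.40 with an SD of 14.3, and none came near an AU-15330 library. HMOX1, heme oxygenase 1, had 191.3, 208.1 and 157.3 under DMSO and 1553, 1388 and 1335 under AU-15330. CTTN encodes cortactin, which stabilises branched actin, and it went from 216.1 ± 29.6 to 1616 ± 243 (SD, n = 3). The symbol CTTN has 2 entries, so that its value is uncertain. NR4A3, an orphan nuclear receptor induced by antigen receptor signals, had 137.1, 114.0 and 70.05 under DMSO and 1101, 972.0 and 709.0 under AU-15330. TYMP, thymidine phosphorylase, rose by 2.54 on the log2 scale, and BTG2, an antiproliferative gene and p53 target, rose by 2.11 to a mean of 8075 ± 510. The others were CCDC110 (2.33), SPSB1 (2.32), CBSL (2.19), the co-chaperone DNAJB2 (2.09), MTCL1 (2.08), the fructose-2,6-bisphosphate enzyme PFKFB4 (2.07) and the nucleoside and monoamine transporter SLC29A4 (2.04). CBSL is a near-identical copy of CBS, so its reads can be split between the copies and its value is uncertain. PFKFB4 varied most among the AU-15330 libraries, at 815.6, 619.2 and 315.3.

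**Figure D2:**
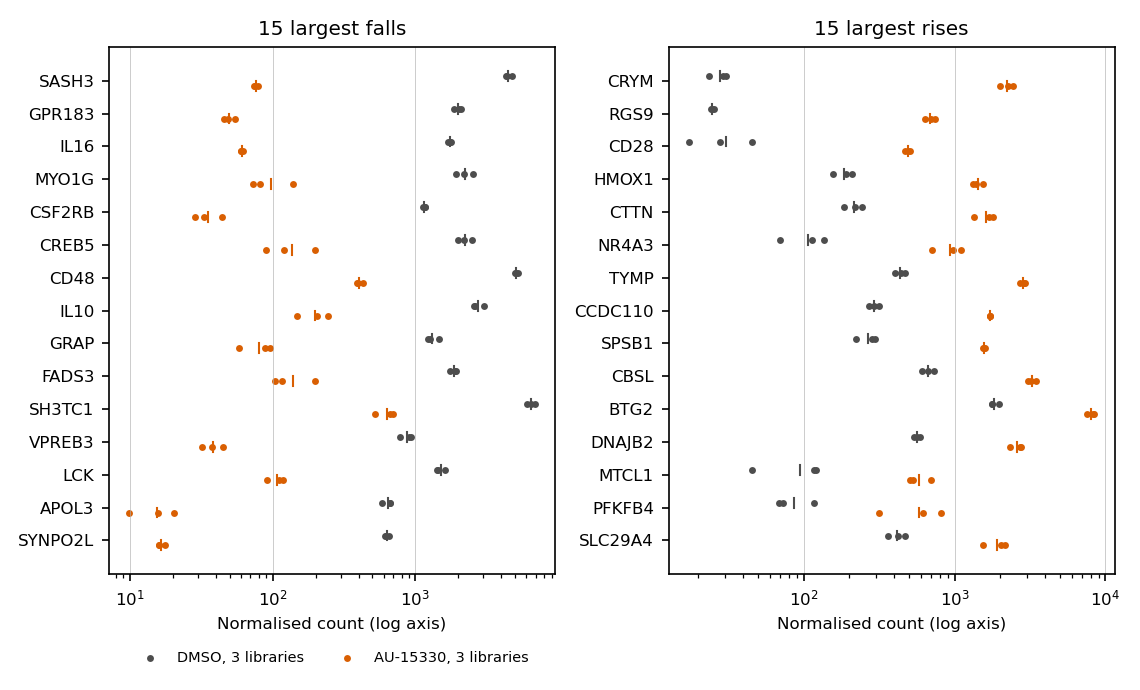
Normalised counts (log axis) of the 15 largest falls and 15 largest rises at 24 h, with 1 point per library and a short line at the group mean. DMSO points are grey and AU-15330 points are orange, and the colours are separated in every row, as the choice of genes required.

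Sequences upstream of the start are shown for the 3 largest falls and 3 largest rises with an entry in RefSeq's promoter table. These sequences are shown because genes at least 2-fold lower started in sequence poorer in CpG, by the medians below, than all tested genes. Each run gives the 250 bases before a RefSeq transcript start, 5′ to 3′ on the gene's strand, on GRCh38.p14, with each CG pair in capitals.
RGS9 (chr17:65137120-65137369, plus strand): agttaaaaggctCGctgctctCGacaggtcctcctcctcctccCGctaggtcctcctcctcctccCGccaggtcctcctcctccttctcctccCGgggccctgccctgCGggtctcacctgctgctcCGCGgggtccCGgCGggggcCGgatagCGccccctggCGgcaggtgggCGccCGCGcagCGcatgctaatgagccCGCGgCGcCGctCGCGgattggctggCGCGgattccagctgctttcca
CD28 (chr2:203706389-203706638, plus strand): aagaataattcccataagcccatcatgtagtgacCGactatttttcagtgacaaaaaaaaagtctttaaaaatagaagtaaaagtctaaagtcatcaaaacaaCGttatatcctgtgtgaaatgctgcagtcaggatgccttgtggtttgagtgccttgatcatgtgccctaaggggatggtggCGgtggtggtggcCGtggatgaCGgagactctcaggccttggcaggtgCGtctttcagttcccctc
NR4A3 (chr9:99821635-99821884, plus strand): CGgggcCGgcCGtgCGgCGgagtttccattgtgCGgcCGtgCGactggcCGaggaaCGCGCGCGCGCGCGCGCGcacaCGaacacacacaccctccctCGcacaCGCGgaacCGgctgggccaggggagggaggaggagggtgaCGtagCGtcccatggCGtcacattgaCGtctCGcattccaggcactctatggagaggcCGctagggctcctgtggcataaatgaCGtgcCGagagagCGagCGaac
SASH3 (chrX:129779699-129779948, plus strand): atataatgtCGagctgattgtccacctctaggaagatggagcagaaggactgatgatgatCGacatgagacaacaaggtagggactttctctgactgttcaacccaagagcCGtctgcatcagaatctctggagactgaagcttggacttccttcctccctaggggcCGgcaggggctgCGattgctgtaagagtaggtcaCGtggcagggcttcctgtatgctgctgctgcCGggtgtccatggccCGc
GPR183 (chr13:99307400-99307649, minus strand): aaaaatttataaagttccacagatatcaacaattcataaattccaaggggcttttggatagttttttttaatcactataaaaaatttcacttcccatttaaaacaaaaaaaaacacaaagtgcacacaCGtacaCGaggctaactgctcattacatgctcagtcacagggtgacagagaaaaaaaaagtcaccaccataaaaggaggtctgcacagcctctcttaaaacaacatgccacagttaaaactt
IL16 (chr15:81199226-81199475, plus strand): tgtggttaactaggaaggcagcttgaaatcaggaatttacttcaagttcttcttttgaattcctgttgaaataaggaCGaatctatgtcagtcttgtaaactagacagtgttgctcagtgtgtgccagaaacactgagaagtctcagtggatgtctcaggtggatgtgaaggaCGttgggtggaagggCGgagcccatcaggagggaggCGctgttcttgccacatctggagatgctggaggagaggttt

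GPR183 holds 2 CG pairs in this window, IL16 holds 4 and SASH3 holds 8. Among the rises, CD28 holds 6, RGS9 holds 25 and NR4A3 holds 33. CG reads the same on both strands, and 99.3% of the 9006 such windows found for tested genes hold at least 1, with a median of 21. RefSeq's table had an entry for 74.6% of the genes at least 2-fold lower and 74.7% of those at least 2-fold higher. Both are under the 80% needed, so the planned check of promoter motifs was void and no motif counts are given. In its place, after the data were seen, the first 300 bases of 1 GENCODE transcript per gene were used. The ratio of observed to expected CpG in those bases had a median of 0.771 over all 11310 genes with a transcript, 0.589 over 546 genes at least 2-fold lower and 0.731 over 190 at least 2-fold higher. A ratio under 0.4, which marks a start poor in CpG, was found for 33.2% of the genes at least 2-fold lower, 17.9% of those at least 2-fold higher and 13% of all. The median of the lower genes was under that of all genes in each of 6 classes of expression level, for example 0.52 against 0.765 at 10 to 30 CPM. The median GC content over the whole transcript was 55.6% for the lower genes, 54.5% for the higher genes and 48.4% for all. These are descriptions with no test.

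**Figure D3:**
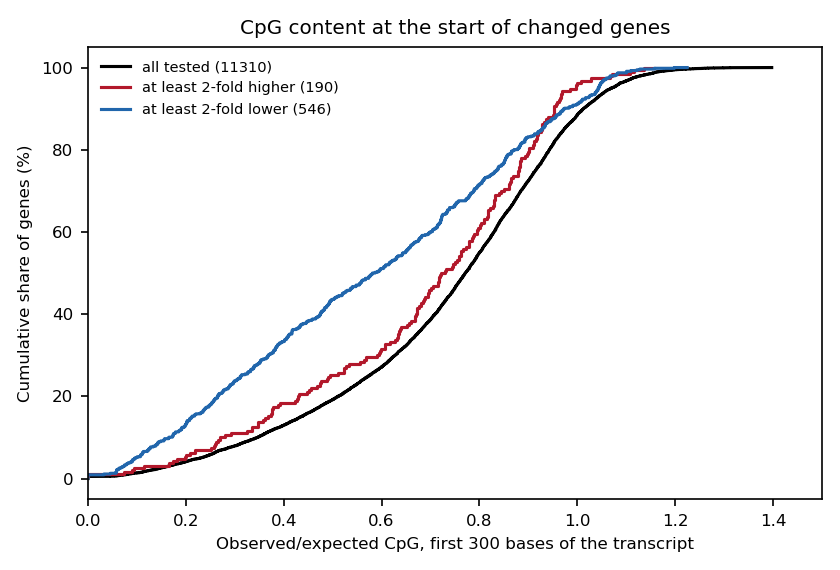
Cumulative share of genes (%) by the ratio of observed to expected CpG in the first 300 bases of the transcript, for all tested genes and for genes at least 2-fold higher or lower at 24 h. The curve of the lower genes lies to the left, with 33.2% of them under 0.4 against 13% of all.

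The RNAs of the degrader's own targets fell by less than 2-fold. SMARCA4 had 33720, 36350 and 37453 normalised counts under DMSO and 29382, 30323 and 28684 under AU-15330, a log2 change of -0.28. SMARCA2 fell further, from 4850, 5320 and 4910 to 2952, 2864 and 2398, which is -0.87 on the log2 scale (SE 0.0703, adjusted p = 1.1e-06, limma). PBRM1 had 13298, 14597 and 13446 under DMSO and 11571, 12271 and 13054 under AU-15330, with a log2 change of -0.16 and an adjusted p of 0.0189 in limma. PBRM1 lost its call without 1 of the libraries, with adjusted p of 0.0777 without AU-15330 replicate 1 and 0.0812 without DMSO replicate 2. Of 26 tested genes for BAF, PBAF and ncBAF subunits, 8 rose, 6 fell and 12 did not pass, with a median of 0.07 against 0.01 for all genes and a called share of 53.8%, near the 50.9% of all genes. BICRAL, a scaffold of the ncBAF form, rose from a mean of 2734 to 4749. SS18L1 (0.44) and ARID1A (0.41), a DNA-binding subunit of canonical BAF, also rose, and the core subunit SMARCB1 fell (-0.45). Among 19 other remodellers 6 rose and 3 fell, a called share of 47.4%, near the 50.9% of all genes. CHD4, the ATPase of the NuRD complex, fell from a mean of 45556 to 28639, while its paralog CHD3 rose by 0.75 on the log2 scale. Of 38 histone and DNA modifying enzymes 11 rose and 5 fell, with a median of 0.06 and a called share of 42.1%, under the 50.9% of all genes. The acetyltransferase KAT2B (0.91), the DNA methyltransferase DNMT3A (0.73) and the histone demethylase KDM6B (0.62) rose, and the acetyltransferase CREBBP fell (-0.48).

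B cell receptor genes fell almost throughout. This pathway runs from the CD79A and CD79B signalling chains through the kinases LYN, SYK and BTK to NF-kappaB. Of 27 tested members 24 fell, 1 rose and 2 did not pass, the median was -1.02 and 14 were at least 2-fold lower. CD79B had 11084, 10811 and 11544 under DMSO and 2244, 2366 and 2354 under AU-15330. BTK, the kinase that ibrutinib inhibits, had 10758, 10233 and 10023 under DMSO and 1794, 1641 and 1907 under AU-15330, a log2 change of -2.50 (SE 0.0632, adjusted p = 2.06e-10, limma). Every AU-15330 library of both genes stood far under every DMSO library. CD81, a tetraspanin of the B cell surface, went from 28731 ± 181 to 7014 ± 207 (SD, n = 3). Negative regulators fell as well: the phosphatase PTPN6 (SHP-1) by 2.62 on the log2 scale, the inhibitory receptors CD72 and CD22 (-2.49 and -2.42), and the lipid phosphatase INPP5D (SHIP1) by 1.57. SYK fell less, by 0.86, and LYN by 0.90. The exception was the linker BLNK, which rose from 3627, 3178 and 3179 to 4002, 3969 and 4000, and PRKCB (0.06) and VAV1 (0.12) did not pass. Of the 10 B cell markers 9 fell, and CD37 rose from 462.3 ± 45.4 to 1079 ± 47.4 (SD, n = 3).

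Among 38 transcription factors of the B lineage 23 fell and 7 rose, with a median of -0.48. SPI1, which encodes PU.1, had 1088, 1032 and 1112 under DMSO and 97.28, 87.71 and 87.80 under AU-15330, a log2 change of -2.91. SPIB, its close relative in the ETS family, moved the other way, from 18179, 15663 and 17480 to 45163, 46318 and 44946. The groups did not overlap for either gene. IRF8, which partners PU.1, fell from a mean of 1110 to 231.6, and the ETS factor FLI1 (-1.79), the octamer coactivator POU2AF1 (-1.45), EBF1 (-1.42) and PAX5 (-1.03) fell. PAX5, which holds B cell identity, had 13711, 14792 and 14401 under DMSO and 6213, 7302 and 7395 under AU-15330. PRDM1, which encodes BLIMP1 and drives plasma cell differentiation, rose from 1179, 1361 and 1596 to 2861, 3129 and 3241. XBP1 and IRF4, factors that also act in plasma cells, fell by 0.83 and 0.71 on the log2 scale, and MZB1, a chaperone of marginal zone B and plasma cells, fell by 1.30. SOX11 rose from 4640, 5332 and 5199 to 10879, 11511 and 11539, while CCND1, encoding cyclin D1, had 167446, 164355 and 167602 under DMSO and 163393, 169249 and 162051 under AU-15330. For CCND1 the groups overlapped and the log2 change was -0.01 (SE 0.028, adjusted p = 0.694, limma). MYC fell slightly, from 55400 ± 226 to 48629 ± 781 (SD, n = 3), or -0.19 on the log2 scale.

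Most genes on the lists of chemoattractant receptors and adhesion molecules, which place and hold lymphocytes in tissue, fell. Of 15 tested chemoattractant receptors 12 fell and 2 rose, with a median of -1.23. CCR7, which guides cells into lymph nodes, had 4131, 4424 and 3918 under DMSO and 699.8, 769.0 and 646.1 under AU-15330. GPR183 is described above. GPR18 (-2.85), the proton-sensing GPR132 (-2.45), the lysophospholipid receptor P2RY10 (-2.35) and CXCR4 (-0.91), the receptor for the marrow chemokine CXCL12, fell too. S1PR1, the receptor by which lymphocytes leave tissue, rose from 1868 ± 120 to 4498 ± 366 (SD, n = 3). Of 17 adhesion genes 12 fell and 2 rose. Beside CD48, the integrin chain ITGB7 (-1.60), ICAM1 (-1.39), ICAM3 (-1.63) and PECAM1 (-1.74) fell, and SELPLG, the selectin ligand PSGL-1, rose from a mean of 410.6 to 1136. Of 44 regulators of actin and small GTPases 31 fell and 4 rose, with a median of -0.42. CORO1A, an actin-binding coronin of blood cells, went from 19500, 18187 and 19065 to 4573, 4349 and 4389. WAS, which encodes the Wiskott-Aldrich protein, fell by 1.77 on the log2 scale, and ARHGDIB (-1.72) and RAC2, from a mean of 2725 to 1338, fell as well. Among widely expressed members, RAC1 fell by 0.12 and CDC42 by 0.13, and RHOA (0.00) and EZR (0.01) did not pass. VASP rose by 0.81.

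Most antigen presentation genes fell, and interferon genes moved in both directions with more falls than rises. Of 24 tested genes for MHC class I and II presentation 17 fell and 2 rose, with a median of -0.70. Values of HLA genes are uncertain, because reads are shared between family members and alternative haplotypes. CIITA, the coactivator that switches on MHC class II, had 7817, 7450 and 7906 under DMSO and 3234, 3370 and 3448 under AU-15330. CD74, the invariant chain of class II, went from 180492 ± 5435 to 113886 ± 6697 (SD, n = 3). NLRC5, the matching coactivator of class I, fell by 1.76 on the log2 scale, and the peptide loading genes TAPBP and TAP1 by 1.40 and 1.11. RFX5, a DNA-binding factor at class II promoters, rose by 0.55. In the proteasome list of 36 genes, 13 rose and 7 fell, with a median of 0.06 and a called share of 55.6%, near the 50.9% of all genes. The activator subunits PSME1 and PSME2, which belong to the interferon-induced form, fell by 1.55 and 1.01, whereas the standard catalytic subunits PSMB5 and PSMB6 each rose by 0.36. Of 29 interferon-stimulated genes and sensors 17 fell and 7 rose, with a median of -0.49. The transcription factor IRF1 went from 4074, 4096 and 4188 to 1034, 1152 and 1150. MX1 and MX2, antiviral GTPases, had -1.74 and -1.91, and the endosomal receptors TLR9 (-1.32) and TLR7 (-1.26) fell too. OAS1 (1.00), RNF213 (0.96), IFI6 (0.80) and IRF9 (0.65) rose.

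**Figure D4:**
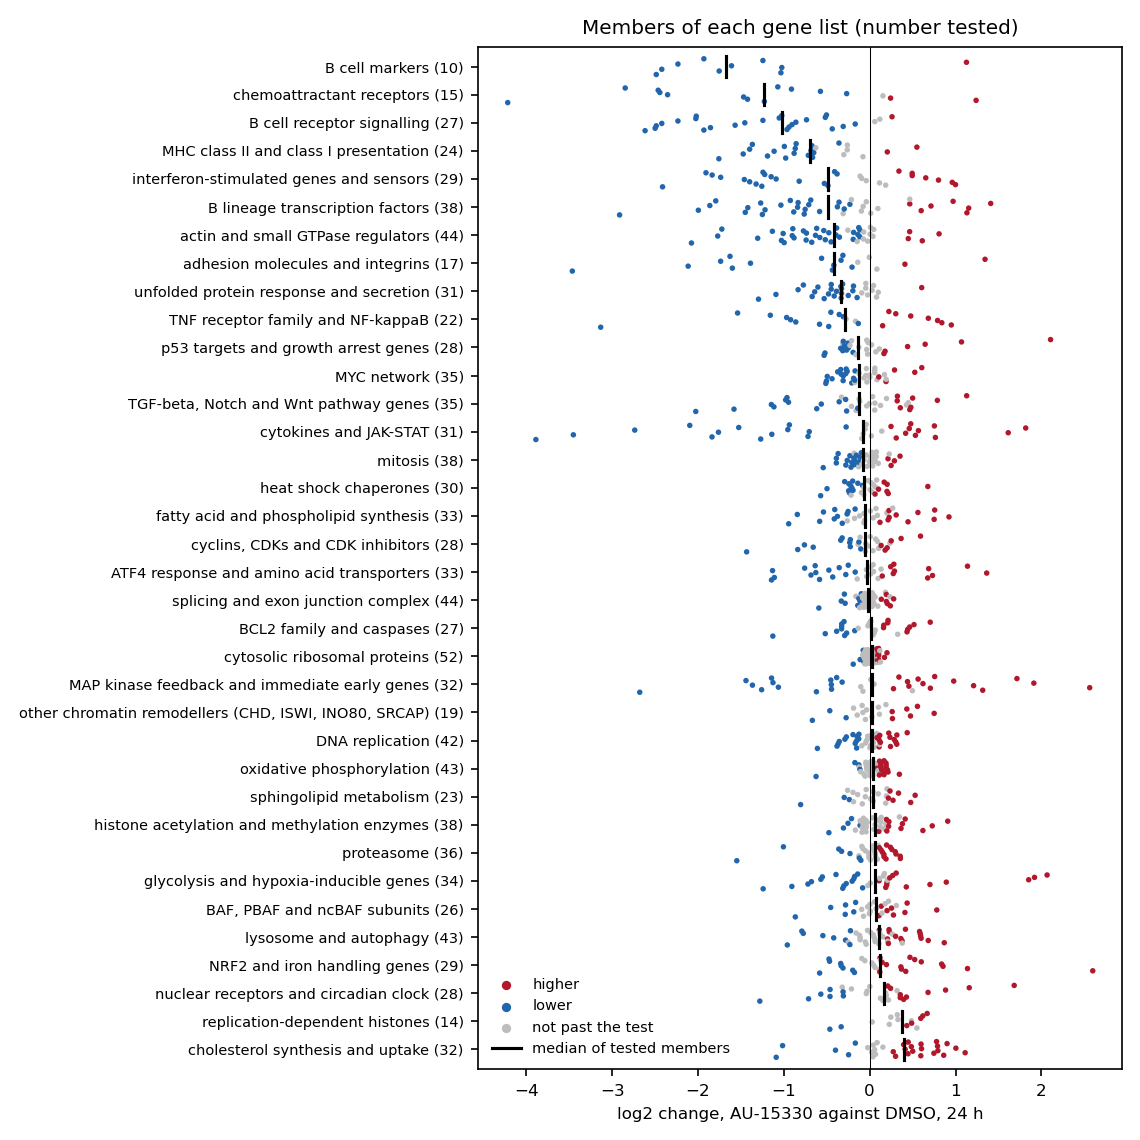
Each point is a tested member of a gene list, placed by its log2 change at 24 h and coloured by its call, with a black line at the median of each list. Lists are ordered by median, from B cell markers at -1.68 to cholesterol synthesis and uptake at 0.40. Some lists with medians near 0 hold members past 2-fold, such as the MAP kinase list with 5 higher and 7 lower, and others, such as DNA replication, hold none.

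Receptors and cytokine signalling changed in both directions. Of 22 genes in the TNF receptor and NF-kappaB list 12 fell and 8 rose, with a median of -0.29. Most receptors that passed fell. TNFRSF1B (TNFR2) had 3096, 3122 and 3058 under DMSO and 319.9, 260.8 and 319.4 under AU-15330. TNFRSF13C, the BAFF receptor, and CD40 fell (-1.54 and -1.16), while TNFRSF8 (CD30) rose by 0.48. Of the NF-kappaB subunits, RELB rose from 5220, 5282 and 5335 to 10248, 10700 and 9856, NFKB2 rose by 0.84, REL by 0.79 and RELA by 0.15, and NFKB1 fell by 0.13. The inhibitors of the pathway fell, with NFKBIE at -0.97, TNFAIP3 (A20) at -0.45 and NFKBIA at -0.36. Of 31 cytokine and JAK-STAT genes 14 fell and 11 rose, with a median of -0.08. The common gamma chain IL2RG fell from 12216 ± 475 to 3560 ± 171 (SD, n = 3). The kinase that binds it, JAK3, fell from 1272, 1166 and 1327 to 151.9, 129.0 and 130.7, and STAT6 and STAT5A fell by 1.27 and 1.84 on the log2 scale. JAK2 (0.75), IL6R (1.61), IL6ST (0.53), the signalling chain for IL-6, and SOCS3 (1.82), a feedback inhibitor of that chain, rose.

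MAP kinase feedback and immediate early genes were split evenly, with 14 of 32 higher and 13 lower, and 5 did not pass. The nuclear receptors NR4A3 (2.56), NR4A2 (1.91) and NR4A1 (0.76), the phosphatases DUSP4 (1.72), DUSP16 (1.21) and DUSP5 (0.98) and the growth factor HBEGF (1.32) rose. EGR3 (-2.68), FOS (-1.37), ATF3 (-1.14), DUSP2 (-1.13) and EGR1 (-1.06) fell. EGR1 varied widely between DMSO libraries, at 4129, 7616 and 5618, with 3287, 2963 and 1916 under AU-15330. Of 35 genes in the TGF-beta, Notch and Wnt list 13 fell and 8 rose, a called share of 60% against 50.9% of all genes. TCF7 fell from a mean of 312.8 to 31.05 and NOTCH1 from 5071 to 2572, and WNT10A rose from 1008 to 2289.

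Most sterol synthesis genes rose. Of 32 tested genes for cholesterol synthesis and uptake 19 rose and 5 fell, with a median of 0.40. HMGCS1, which makes HMG-CoA, went from 4999, 4841 and 4619 to 10312, 9807 and 9089. DHCR7, the last enzyme of the Kandutsch-Russell route, went from 1062, 931.9 and 991.1 to 2092, 2359 and 2210. SQLE (0.86), squalene epoxidase, and the master factor SREBF2 (0.50) rose. TM7SF2, a sterol reductase, fell by 1.09 and the efflux pump ABCA1 by 1.01 on the log2 scale. Fatty acid and phospholipid genes did not share the direction: 10 of 33 rose and 11 fell. DGAT2 (0.92) and SCD (0.56) rose, and ACSL5 (-0.94), LPIN1 (-0.84) and the desaturases FADS1 (-0.41) and FADS2 (-0.38) fell.

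Amino acid transport and stress genes held some of the most abundant changes. SLC7A5, the LAT1 transporter of large neutral amino acids, had 46427, 47311 and 47123 under DMSO and 118710, 124080 and 119965 under AU-15330, a log2 change of 1.36 (SE 0.0461, adjusted p = 1.18e-09, limma). Its partner chain SLC3A2 rose by 0.73 and the cystine transporter SLC7A11 by 1.14. In the ATF4 list as a whole 10 of 33 rose and 14 fell, a balance that became 13 and 12 under quantile normalisation. SHMT2, the mitochondrial serine enzyme, went from 76572, 74953 and 75779 to 34538, 35094 and 33993, and ATF4 itself (0.04) did not pass. Of 29 genes of the NRF2 and iron list 14 rose and 8 fell, with a median of 0.12. Beside HMOX1, the rises included SRXN1 (0.84), OSGIN1 (0.85) and the transferrin receptor TFRC (0.52), and the pentose phosphate genes TALDO1 (-0.58) and PGD (-0.47) fell. FTH1 (0.06), NQO1 (0.05) and GCLM (0.13) did not pass. Of 31 genes for the unfolded protein response and secretion 22 fell and 1 rose, with a median of -0.33. ERN1 (IRE1), the sensor that splices XBP1 RNA, fell by 1.09, and the chaperone HSPA5 (BiP) went from 34977 ± 684.5 to 25624 ± 297 (SD, n = 3). The kinase EIF2AK3 (PERK) was the exception that rose (0.61). Of 34 glycolysis and hypoxia genes 13 rose and 15 fell. PFKM (-1.24) and the glucose transporter SLC2A1 (-0.91) fell, and PFKFB4, ALDOC (1.92) and ADM (1.85) rose. Of 43 lysosome and autophagy genes 15 rose and 8 fell, a called share of 53.5%, near the 50.9% of all genes. Among them the kinase ULK1 (0.87) was higher and the lysosomal factor TFEB (-0.96) lower.

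Genes of growth and survival changed in both directions, and the members of these lists past 2-fold were BCL2, CDK6, BTG2 and GADD45B. BCL2, the antiapoptotic gene, was the largest change among the 27 tested genes of the BCL2 family and caspase list, which leaves out CASP1 (-2.88), and went from 6226, 6403 and 6043 to 2681, 2857 and 2908. BAD rose by 0.71, and MCL1 (0.01), BAX (-0.02) and BCL2L1 (-0.33) had smaller values, of which the last passed. Of 28 cyclin and CDK genes 11 fell and 6 rose. CDK6, a partner of D cyclins, fell by 1.43 and CCND3 by 0.76 on the log2 scale, CCNE1 rose by 0.59, and CDK4 (0.04) did not pass. Of 38 mitosis genes 16 fell and 4 rose, with a lowest value of -0.54 for TOP2A. Of 42 DNA replication genes 13 rose and 13 fell, between -0.61 for ORC6 and 0.44 for POLD1. Of 28 p53 targets and growth arrest genes 10 fell and 6 rose. CDKN1A (p21) fell by 0.34, while BTG2 (2.11), GADD45B (1.07) and MDM2 (0.44) rose. Of 35 MYC network genes 16 fell and 5 rose, with a median of -0.12. Of 52 cytosolic ribosomal protein genes 38 did not pass, 10 rose and 4 fell, a called share of 26.9%, and none was past -0.19 or 0.20. Of 44 splicing genes 29 did not pass. Called shares were 70.4% for the BCL2 family and caspases, 60.7% for cyclins, 52.6% for mitosis, 61.9% for replication, 57.1% for p53 targets, 60% for the MYC network and 34.1% for splicing, against 50.9% of all genes. The balance of rises and falls in the cyclin, BCL2, fatty acid, glycolysis, heat shock and splicing lists turned or evened out under other scalings, which shifted the median of all genes from 0.01 to at most 0.06. Replication genes, even as reported, had 16 rises and 7 falls under quantile normalisation and 17 and 10 on both CPM scales. Mitosis genes had 7 rises and 9 falls under quantile normalisation and 6 and 9 on the CPM scales. Ribosomal protein genes had 16 rises and 2 falls, and 20 and 1, and MYC network genes 8 and 15, and 9 and 15, in the same order. The balance of the B cell receptor, lineage factor, presentation, chemoattractant, adhesion, actin, interferon, secretion and cholesterol lists kept its direction under the 4 other scalings run.

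A small set of genes passed between near absence and clear expression. With a mean under 1 CPM in 1 group and at least 5 CPM in the other, 5 genes were switched on and 26 off. Those on were CRYM, RGS9, CD28, NR4A2 and C3orf18. Those off included CASP1, the inflammasome protease, at 378.4, 376.6 and 434.6 under DMSO and 1.58, 0 and 3.79 under AU-15330. FCMR, the Fc receptor for IgM, had 436.2, 418.9 and 460.9 under DMSO and 3.92, 7.03 and 5.14 under AU-15330. The SRC family kinase FGR, the fringe enzyme LFNG, the lectin LGALS9, the SLAM receptor LY9 and the interferon gene IFITM1 were also among the 26, with CD22, TCF7, VPREB3, CSF2RB and GPR183 from the accounts above. Where every library had to meet the limits, 3 genes were on and 17 off. These genes were picked after their values were seen.

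Markers of other cell types were low, and did not move in 1 direction. Of 15 T and NK cell markers measured, 5 reached 1 CPM in a library, and their sum was 13.7 to 15.2 CPM under AU-15330 and 43.6 to 47.0 under DMSO. LCK, CD3G and CD4 fell and CD28 rose. CD3E, which was not among the 4 tested, had 0.9804 to 1.247 CPM under DMSO and 0 to 0.0334 under AU-15330. ZAP70 was at 0 in every AU-15330 library and at most 0.08144 CPM under DMSO. Of 7 myeloid markers only CD68 reached 1 CPM, and the sum was 3.86 to 4.78 CPM against 2.13 to 2.77. Of 7 erythroid and megakaryocyte markers only EPOR did, and the sum was 11.2 to 12.3 CPM against 5.38 to 7.12. The sum of 8 stromal and epithelial markers was 4.77 to 5.88 CPM against 26.5 to 33.7. Under DMSO most of that sum was COL1A1, at 19.66 to 20.98 CPM, and under AU-15330 COL1A1 had 1.268 to 3.858 CPM. The mean of COL1A1 went from 1235 to 132.0 normalised counts. Neuronal markers summed to 12.95 to 19.8 CPM against 17.2 to 19.3. The sum of 28 replication-dependent histone genes, whose RNA mostly lacks a poly(A) tail, was 66.4 to 105 CPM against 47.5 to 67.3. The labels name a poly(A) kit and a ribosomal depletion kit without saying which library had which, and the part of this in any result was not tested.

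In absolute counts, which depend on gene length as well as level, the largest gains were PTMA, SLC7A5, IGLL5, ATF5, SPIB and HBEGF. PTMA, which encodes the chromatin protein prothymosin alpha, had 332266, 357154 and 356232 under DMSO and 562227, 559671 and 498443 under AU-15330. ATF5, a stress transcription factor, went from 75113 ± 2862 to 118120 ± 2018 (SD, n = 3). IGLL5 shares sequence with the immunoglobulin lambda constant genes, so its value is uncertain. The largest losses were EEF1A1, TUBA1B, CD74, IGHM, GAPDH and ACTB. IGHM, the heavy chain of the IgM receptor, went from 170319, 166616 and 162251 to 108558, 110240 and 106334, and its symbol has several entries, so that its value is uncertain. ACTB fell by 0.35, TUBA1B by 0.31, GAPDH by 0.30 and EEF1A1 by 0.16 on the log2 scale. Under quantile normalisation PTMA (0.18) and TUBA1B (-0.18) did not pass (adjusted p = 0.191 for each in limma), and EEF1A1 and GAPDH were at 0.00, since that scaling gives genes of the same rank the same value.

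Across 24 h and 8 h, the difference between the effects passed the test for 2358 of 12721 genes (18.5%). Without the DMSO library at 8 h whose name the labels give to replicates 2 and 3, it passed for 1571. With a term for replicate number in the model as well, it passed for 1272. Of the 609 genes at least 2-fold lower at 24 h, 545 had also fallen at 8 h, beside 21.4% of all genes, with a median log2 change at 8 h of -1.09. Of the 209 genes at least 2-fold higher, 149 had risen at 8 h, beside 22.9% of all genes, with a median at 8 h of 0.78. These genes were chosen for a large change at 24 h, which by itself favours smaller values at 8 h, so the sizes at the 2 times are not compared. HMOX1 and NR4A3 had log2 changes of 0.15 and 0.01 at 8 h against 2.60 and 2.56 at 24 h. SOX11 went from 0.19 at 8 h to 1.15 at 24 h, a difference of 0.96. The DMSO controls also differed between the times for some of these genes. EGR1 had a DMSO mean of 287.6 at 8 h and 5788 at 24 h, and its log2 change went from 2.28 to -1.06. EGR3, FOS and CCL3L1 had DMSO means of 19.11, 35.80 and 16.02 at 8 h and 869.5, 873.1 and 353.2 at 24 h. For PTPN6 the DMSO mean was 1242 at 8 h and 4674 at 24 h, beside AU-15330 means of 899.5 and 714.0. For IL10 the DMSO mean was 722 at 8 h and 2752 at 24 h, beside AU-15330 means of 96.26 and 199.5. Falls in these 6 genes at 24 h therefore stand against controls that were higher at 24 h than at 8 h. Other genes named above share this limit, among them PAX5, with DMSO means of 7170 at 8 h and 14301 at 24 h. Its AU-15330 means were 2532 and 6970, and its log2 changes were -1.48 and -1.03. CASP1 (189.7 and 396.5), FCMR (116.2 and 438.7) and CD22 (178.1 and 325.1) also had higher DMSO means at 24 h. For BTK the DMSO means were close, at 10027 and 10338, while the AU-15330 mean was 4492 at 8 h and 1781 at 24 h.

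**Figure D5:**
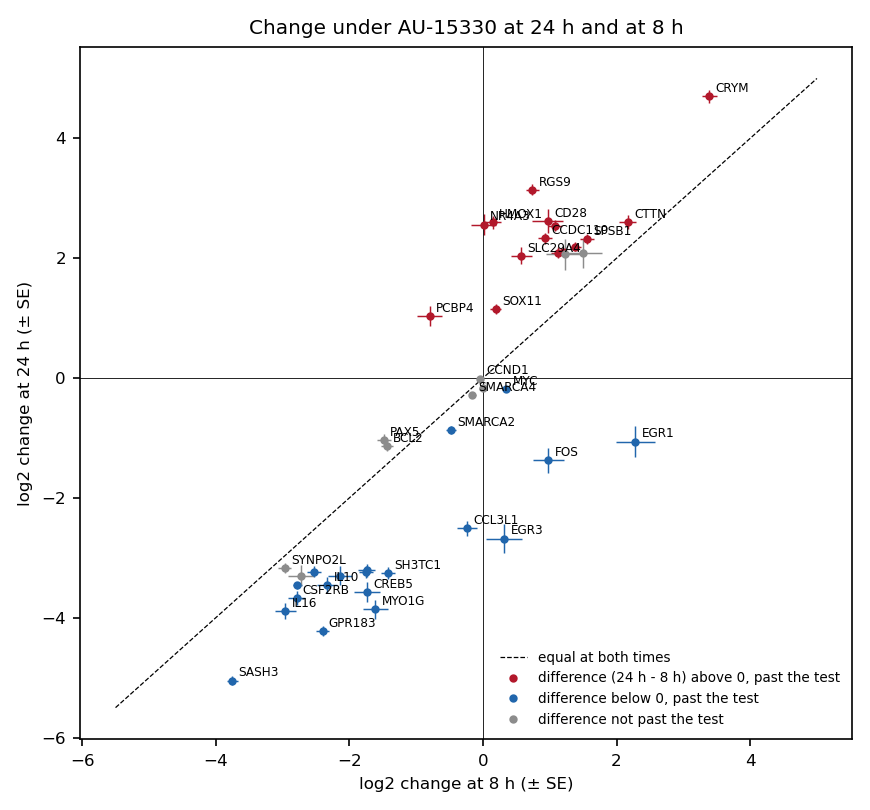
Log2 change ± SE at 24 h against that at 8 h for the 15 largest rises and falls, the genes with the largest differences between times and 8 genes named in every case. Points off the dashed line have unequal estimates at the 2 times. Colour shows whether that difference passed the test, which for some points it did not. EGR1, EGR3, FOS and CCL3L1 lie far below the line and NR4A3, HMOX1 and RGS9 far above it.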

How the data were processed

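RNA-seq was read from 1 deposited table of log2 values. Per the submitters' processing notes, the tools were Trimmomatic 0.40, kallisto 0.46.1, R 4.3.2 and DESeq2 1.24.0 with the build GRCh38.p13, in no stated role or order, and per the labels FastQC 0.11.9 and reads of 50 bp. Neither parameters nor strand use are stated there, and genes that overlap others are uncertain. Deposited log2 values ran from 10.361, shared by all libraries, to 20.2. The table's name speaks of log CPM, but these values look like a variance-stabilised scale. That scale is inferred from the values and not stated in the sources used here. Inverting it gave the normalised counts on which every level, CPM and fold rests, and on which the filter on low genes rests, while the tests used the deposited values. After division by the worth of 1 count, about 54% to 56% of values up to 20 lay within 0.02 of a whole number, so no count model was used. A doubling is 0.163 on the deposited scale at 100 normalised counts and 0.852 at 10000, so folds were computed on log2(normalised count + 60).

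Groups came from sample titles. The table has 12 columns, of which a pair share name and values, so 1 column was not used and DMSO at 8 h has 2 libraries. An entry was tested if 3 or more libraries had 1 CPM or more (62.6% of entries). limma 3.58.1 in R 4.3.3 was fitted to the deposited values of all 11 libraries with 1 mean per group and a trended prior. The procedure was tested on simulated data. Adjusted p-values cover all genes tested. Coordinates are from GENCODE release 29 on GRCh38, which matched 91.41% of entries. Tables were made with pandas 2.3.3 and NumPy 2.4.6 under Python 3.11.15, and figures with Matplotlib 3.10.9.

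Named genes are the 15 largest rises and 15 largest falls past the threshold (a proper symbol, a mean of 5 CPM or more where higher, and no overlap between groups), the 6 largest gains and 6 largest losses in counts, the 4 members of each list with the smallest p, the 4 largest differences between times each way, and SMARCA4, SMARCA2, PBRM1, CCND1, SOX11, MYC, PAX5 and BCL2. Other list members were named after their values were seen. The genes and lists were chosen with earlier results of these data known. Alternatives were quantile normalisation, centred medians, log2(CPM + 1), log2(CPM + 5), no filter, a filter at 5 CPM, priors without a trend or robust, the 24 h libraries alone, a replicate block, and each replicate left out.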

Additional observations from a re-analysis of the deposited data

Results flagged for a closer look

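The effect of AU-15330 differed between 24 h and 8 h, by limma's test of the difference with Benjamini-Hochberg adjustment under 0.05, for 39 of 55 genes looked at. Most of these genes were chosen for a large change at 24 h or a large difference between the times, so this count follows from the choice and is no result beside the 18.5% of all genes. The 2 times are also 2 batches by the labels, and time and batch cannot be told apart. Differences are given as the log2 change at 24 h minus that at 8 h. Among the genes that rose most, the differences were 2.56 for NR4A3, 2.45 for HMOX1, 2.41 for RGS9, 1.65 for CD28, 1.47 for SLC29A4, 1.46 for TYMP, 1.40 for CCDC110 and 1.31 for CRYM. They were 0.98 for DNAJB2, 0.91 for BTG2, 0.81 for CBSL, 0.75 for SPSB1 and 0.42 for CTTN. Among the genes that fell most, they were -2.26 for MYO1G, -1.85 for CREB5, -1.83 for SH3TC1, -1.82 for GPR183, -1.49 for VPREB3, -1.47 for APOL3 and -1.31 for SASH3. They were -1.15 for FADS3, -1.12 for IL10 (whose DMSO mean was 722 normalised counts at 8 h and 2752 at 24 h), -0.93 for IL16, -0.88 for CSF2RB, -0.69 for LCK and -0.68 for CD48.

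The largest differences outside those lists were 1.84 for PCBP4, whose log2 change was -0.80 at 8 h and 1.04 at 24 h, and -3.35 for EGR1, -3.00 for EGR3, -2.34 for FOS and -2.27 for CCL3L1. Among abundant genes the differences were 0.44 for ATF5, -0.30 for SLC7A5, -0.40 for IGHM, -0.41 for SPIB and -0.47 for CD74. For SLC7A5 and SPIB the rise was smaller at 24 h than at 8 h. Of the genes named in every case, SOX11 differed by 0.96, SMARCA2 by -0.39 and MYC by -0.54, the last from a log2 change of 0.35 at 8 h to -0.19 at 24 h.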

How the results depend on the processing

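Over 22 alternatives, 7 of 197 named genes changed their call at least in 1 setting: PTMA, TUBA1B, EEF1A1 and GAPDH under quantile normalisation (the last pair at 0.00), PBRM1 in 5 settings (adjusted p 0.0647 to 0.0812 in limma), RPL8 on both CPM scales and ENO2 without AU-15330 replicate 3. Leaving out each replicate in turn gave 5774 to 6480 called genes, and 1571 to 2414 for the difference between the times, which had 2358 with all libraries. The lowest came without the DMSO library at 8 h whose name the labels give to replicates 2 and 3, and without DMSO replicate 1 at 8 h it was 1634. On log2(CPM + 5), where the larger pseudocount shrinks folds by construction, 82 genes were at least 2-fold higher and 288 lower. Where every library had to meet the limits, 3 genes were on and 17 off. The lower share of called genes was 51.4% as reported and 42.4% to 46.3% under the other scalings and scales.

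Whether the replicate numbers pair the samples is not known, since nothing in the labels ties them. Same-numbered samples deviated together with correlations of 0.04, 0.03 and 0.04 across genes, and other pairs with -0.06 to 0.02. Correlations this small cannot settle the question. With the replicate block 6524 genes were called, 6132 in the 24 h libraries alone, and 1272 for the difference between the times, from 10 libraries since the duplicated column has no number. Estimated total counts at 24 h were 50745720 to 59228933 under AU-15330 and 58738556 to 67407984 under DMSO. Genes with fewer than 3 libraries at 1 CPM or more were not tested, and folds of low genes are understated. A gene could pass this filter through the libraries of 1 group alone, as NR4A2 and CCL3L1 could with group means under 1 CPM elsewhere.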

Other observations

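Families of genes with a shared symbol prefix, looked at after the data were seen and with no test, include some with a lopsided count beside the 24.7% higher and 26.2% lower of all genes. Of 15 genes with the prefix PARP, which encode ADP-ribosyltransferases and 2 pseudogenes, 11 fell and 1 rose. PARP10 (-1.33), PARP12 (-0.94) and PARP14 (-0.76), mono-ADP-ribosyltransferases several of which respond to interferon, were lowest, and PARP1, the DNA repair enzyme, fell by 0.29 on the log2 scale. Of 29 F-box genes with the prefix FBXO, the substrate receptors of SCF ubiquitin ligases, 16 rose and 1 fell. FBXO6, which binds glycoproteins, rose from 170.7, 114.1 and 124.7 normalised counts to 508.2, 469.8 and 467.1. Of 17 PHF genes 10 rose and 1 fell, and of 18 ZDHHC genes, which encode protein palmitoyltransferases, 9 rose and 2 fell.

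Zinc finger genes with the prefix ZNF had few falls, with 48 of 450 lower (10.7%, beside 26.2% of all genes). Rises numbered 135 (30%, beside 24.7% of all genes), and most of the family did not pass. The median log2 change was 0.10, and 3 were at least 2-fold higher. Under the other 4 scalings or scales 155 to 168 were higher and 32 to 37 lower. Chromosome 19, where many of these genes lie, had 299 genes higher (31.9%) and 170 lower (18.1%) of 937. The directions of all 5 families were the same under the 5 scalings or scales run.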
